A study of Mus musculus with 4 samples.

Results

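Stmn2, Nefl, Nefm, Tubb3, Gap43, Elavl3, Elavl4, Prph and Isl2 are genes of differentiated neurons and their growing axons. They were taken by name, and each was found by its Entrez gene identifier on the array, which gave 9 probe sets of the 16492 tested. The study placed the human SHOX gene, a short stature homeobox transcription factor that rodents lack, into mice and asked which genes of the developing limb respond to it. Limb RNA from E12.5 embryos went onto 4 Affymetrix mouse arrays, of which 2 were transgenic and 2 wildtype.

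The transgenic embryos carried Tg(Col2a1-SHOX), the SHOXa coding sequence behind a Col2a1 promoter and enhancer, an expression cassette used to drive transgenes in chondrocytes. The wildtype embryos were their littermates without the construct, and the labels give C57BL/6 as the strain of both genotypes. The construct had been injected into C57BL/6 x DBA/2 hybrid eggs, and founders were mated with C57BL/6 mice. Which of the study's transgenic lines supplied the embryos is not given in the sources used here. Fore- and hindlimbs were combined, and each array holds RNA pooled from 2 to 4 littermates of 1 genotype. The design text gives 2 hybridization experiments, and each of 2 title suffixes is shared by 1 transgenic and 1 wildtype array. The suffix was read here as marking the hybridization experiment, called experiment 1 and experiment 2, which the labels do not state.

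Motor and sensory neurons keep their cell bodies in the spinal cord and dorsal root ganglia and send axons into the limb bud, where they branch along muscle and skin with Schwann cell precursors beside them. Much of the messenger RNA of such neurons stays in the cell body, while a part of it travels into the axon, so limb tissue can hold neuronal transcripts without neuronal cell bodies. In RNA of whole limbs, fewer axons and less RNA per axon cannot be told apart. The values below are log2 expression values on the deposited scale, with no comparison of level between genes.

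The array medians lay between 7.81 and 7.85, and the number of arrays limits the precision. Prrx1, a transcription factor of limb mesenchyme, had 10.09 and 10.49 in transgenic limbs of experiments 2 and 1, against 10.09 and 10.52 in wildtype limbs. The transgene's own level was not analysed here. As a check of the pools, Xist, an RNA of the inactive X chromosome, had 6.58 and 6.42 in transgenic limbs against 9.62 and 9.36 in wildtype limbs. The Y-linked Eif2s3y averaged 8.98 in transgenic limbs and 8.15 in wildtype limbs, with both transgenic arrays above both wildtype arrays. Each gene's difference had the same sign in both experiments. The sources used here give no sex of the embryos, so for the genotype comparisons below, genotype and the sex makeup of the pools cannot be told apart.

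None of the 9 neuronal genes passed the test between the genotypes over the 4 arrays. For 6 of them transgenic limbs were above wildtype limbs in experiment 2 and below them in experiment 1, and Isl2 had the reverse order. Of the 9 genes, 0 passed an adjusted p of 0.05 in limma with genotype as the only term, as did 0 of all probe sets (0.0%), and at an unadjusted p of 0.05 the count was 0 of the 9 genes and 32 of all probe sets. Each of the 9 had an adjusted p of 1 in limma. At the study's own thresholds, a log2 fold change beyond 0.2 with an unadjusted p under 0.05, 0 of the 9 genes passed, against 0.188% of all probe sets. The median log2 fold change, transgenic over wildtype, was 0.05 for the 9 genes and −0.01 for all probe sets. It was −0.18 without the transgenic array of experiment 2 and 0.29 without the transgenic array of experiment 1. Each of the 9 genes changed sign when 1 of the 4 arrays was left out, Nefm only to −0.01. The share of all probe sets that change sign in this way was not counted, so the count is not particular to these genes.

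The 2 transgenic arrays lay far apart for most of these genes. The transgenic array of experiment 2 was the highest of the 4 for 7 genes, where 28.1% of all probe sets had this order. The transgenic array of experiment 1 was the lowest for 7 genes, against 25.5% of all probe sets. For 6 genes, namely Stmn2, Nefl, Tubb3, Gap43, Elavl4 and Prph, transgenic limbs were above wildtype limbs in experiment 2 and below them in experiment 1, an order seen in 24.9% of all probe sets. These orders were counted after the values had been seen, and genes of 1 cell type on the same arrays are not independent of each other.

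**Figure D1:**
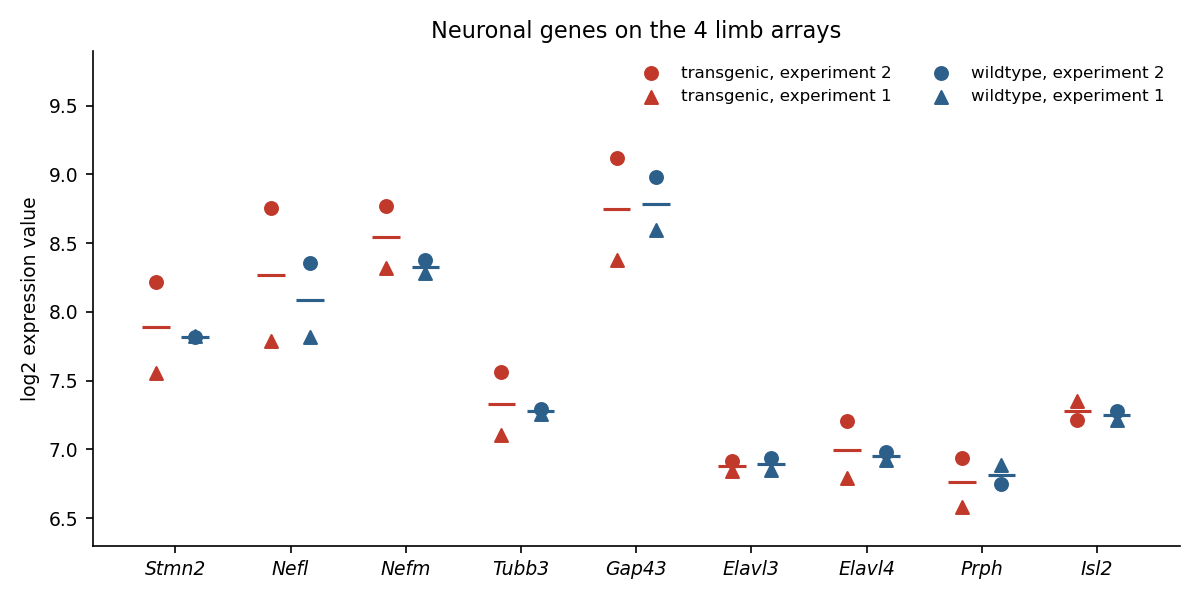
Log2 expression of the 9 neuronal genes (vertical axis) on the transgenic and wildtype arrays, 1 point per array, with a symbol for each hybridization experiment. For 7 genes the transgenic array of experiment 2 is the highest point, and for Elavl3 and Isl2 all 4 points lie close together.

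Stmn2 encodes stathmin-2, a regulator of microtubules in growing axons. It had log2 values of 8.22 in experiment 2 and 7.56 in experiment 1 in transgenic limbs, against 7.81 and 7.82 in wildtype limbs. The wildtype arrays were nearly equal and lay between the transgenic ones. The means were 7.89 ± 0.47 in transgenic and 7.82 ± 0.01 in wildtype limbs (SD, n = 2 each), a log2 fold change of 0.07 with a standard error of 0.23. Taken within an experiment, the difference was 0.40 in experiment 2 and −0.27 in experiment 1.

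Tubb3, the tubulin of neuronal microtubules, followed the same order. Transgenic limbs had 7.57 in experiment 2 and 7.10 in experiment 1, against 7.30 and 7.26 in wildtype limbs, and the within-experiment differences were 0.27 and −0.16. Its log2 fold change over all arrays was 0.05 (SE 0.17). Gap43, a membrane protein of growth cones that Schwann cell precursors also make, had 9.12 and 8.38 in transgenic limbs against 8.98 and 8.60 in wildtype limbs. Both genotypes had more Gap43 in experiment 2, with the transgenic arrays at both ends of the range, and the within-experiment differences were 0.15 in experiment 2 and −0.22 in experiment 1. Its log2 fold change over all arrays was −0.04 (SE 0.29).

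The neurofilament genes build the intermediate filaments of axons. Nefl, the light subunit, had 8.76 in experiment 2 and 7.79 in experiment 1 in transgenic limbs, against 8.35 and 7.81 in wildtype limbs. In experiment 1 the genotypes were close, with a difference of −0.03, while in experiment 2 transgenic limbs were above wildtype limbs by 0.40, which made 0.19 (SE 0.38) over all arrays. Nefm, the medium subunit, had 8.77 and 8.32 in transgenic limbs and 8.38 and 8.28 in wildtype limbs. It was the one gene of the 9 that was above wildtype in both experiments, by 0.39 in experiment 2 and 0.04 in experiment 1, and its transgenic and wildtype arrays overlapped, since 8.32 lies under 8.38. Its log2 fold change over all arrays was 0.22 (SE 0.17), or −0.01 without the transgenic array of experiment 2. Nefm is also a neighbour of Nefl among protein-coding genes in the RefSeq annotation.

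Prph encodes peripherin, an intermediate filament of neurons with axons outside the central nervous system. Transgenic limbs had 6.94 in experiment 2 and 6.58 in experiment 1, against 6.75 and 6.89 in wildtype limbs. Its difference within experiment 1, −0.30, was the lowest of the 9 genes, and that within experiment 2 was 0.19. Over all arrays the log2 fold change was −0.06 (SE 0.15). The mean signal of Prph lay under the 25th percentile of all probe sets.

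Elavl3 and Elavl4 encode RNA-binding proteins of neurons (HuC and HuD), and Isl2 a LIM homeodomain factor of motor and sensory neurons. Elavl4 had 7.21 in experiment 2 and 6.79 in experiment 1 in transgenic limbs, against 6.98 and 6.93 in wildtype limbs, in the order seen for Stmn2, and a log2 fold change of 0.05 (SE 0.16). Elavl3 had 6.91 and 6.84 in transgenic limbs against 6.94 and 6.85 in wildtype limbs, a span of 0.10 over the 4 arrays. Its differences were −0.03 in experiment 2 and −0.01 in experiment 1, and its log2 fold change of −0.02 (SE 0.08) turned to 0.0096 after a repeated quantile normalization. Isl2 had 7.21 and 7.35 in transgenic limbs against 7.28 and 7.21 in wildtype limbs, and it was the one gene of the 9 that was below wildtype in experiment 2 and above it in experiment 1, with differences of −0.07 and 0.14 and a log2 fold change of 0.03 (SE 0.09).

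Start-site sequences are shown because SHOX is a homeodomain protein, a class that binds short motifs with a TAAT core. RefSeq promoter windows on the GRCm38.p6 build, which run from 250 bases before to 50 bases after a transcription start, were matched for 5 of the 9 genes and gave 8 windows. Stmn2, Nefl, Nefm and Gap43 had no match. Capitals mark TAAT or its reverse complement ATTA and the TATA motif TATAAA or its reverse complement. The stretches end 1 base before the start for Tubb3 (chr8:123411453-123411552, plus strand), Elavl3 (chr9:22052024-22052123, minus strand), Prph (chr15:99055074-99055173, plus strand) and Isl2 (chr9:55541049-55541148, plus strand), and run from 210 to 101 bases before 1 of the Elavl4 starts (chr4:110287628-110287737, minus strand).
Tubb3: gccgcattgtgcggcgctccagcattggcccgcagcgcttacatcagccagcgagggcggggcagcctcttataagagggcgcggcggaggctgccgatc
Elavl3: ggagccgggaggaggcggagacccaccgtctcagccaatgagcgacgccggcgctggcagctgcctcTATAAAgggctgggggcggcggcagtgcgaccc
Elavl4: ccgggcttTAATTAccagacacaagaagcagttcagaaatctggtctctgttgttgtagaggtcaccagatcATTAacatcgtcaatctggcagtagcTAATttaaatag
Prph: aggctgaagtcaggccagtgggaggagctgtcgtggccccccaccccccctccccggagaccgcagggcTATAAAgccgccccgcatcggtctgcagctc
Isl2: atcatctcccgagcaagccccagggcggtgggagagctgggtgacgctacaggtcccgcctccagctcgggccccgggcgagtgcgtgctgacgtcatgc

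TAAT or ATTA, searched on both strands and with overlaps counted, was found in 4 of the 8 windows, against 58.0% of all 32851 windows. These windows belong to Elavl3 and Elavl4, and the Elavl4 window at chr4:110351862-110352161 held no match. Elavl4 gave 4 of the 8 windows, and 2 of these overlap over most of their length and hold the same 4 matches. TATAAA was found in 2 of the 8, at position −33 from the start in Elavl3 and −31 in Prph, against 13.6% of all windows. The printed stretches of Tubb3 and Isl2 hold neither motif. The Elavl4 stretch was picked because it holds the matches, from a window with the most of them. The match of Elavl3, at −234, lies outside its printed stretch.

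**Figure D2:**
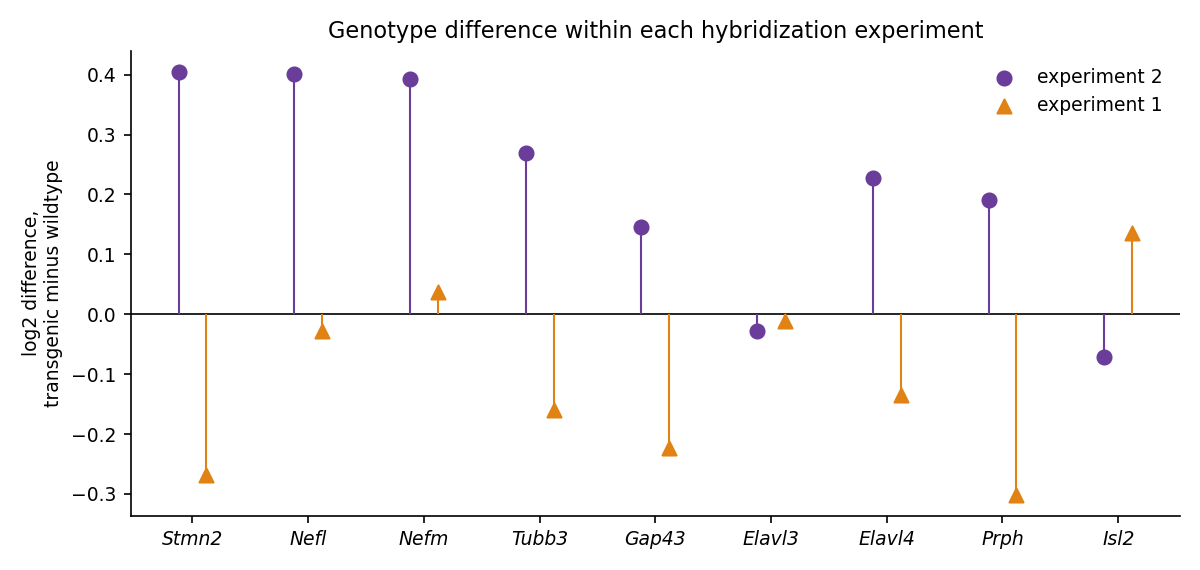
Genotype difference (log2, transgenic minus wildtype) of each of the 9 neuronal genes within experiment 2 and within experiment 1, 1 array of each genotype per difference. Differences of experiment 2 lie above 0 for 7 genes, and Elavl3 and Isl2 are the exceptions.

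The genotype difference of experiment 2 exceeded that of experiment 1 by over 0.2 for 7 of the 9 genes, against 5.75% of all probe sets. The excess was 0.67 for Stmn2, 0.49 for Prph and 0.43 for both Nefl and Tubb3. The median within-experiment difference of the 9 genes was 0.23 in experiment 2 and −0.13 in experiment 1, while that of all probe sets was −0.01 in either experiment. With 1 array of each genotype in an experiment, the difference between the experiments leaves no residual spread and was not tested.

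**Figure D3:**
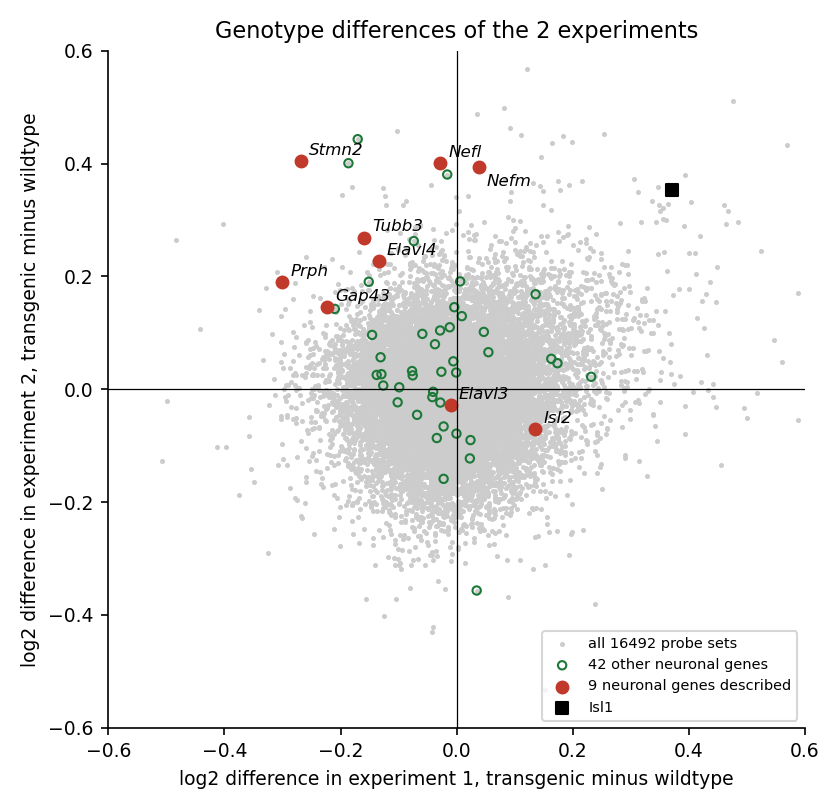
Genotype difference in experiment 2 (vertical axis, log2) against that in experiment 1 (horizontal axis, log2) for all probe sets, with the 9 neuronal genes marked and 17 probe sets outside the axis limits of 0.6. Of the 9 genes, 6 lie in the upper left part, with a positive difference in experiment 2 and a negative one in experiment 1.

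When the hybridization experiment was added to the limma fit as a block, Nefm passed the study's thresholds with a log2 fold change of 0.22 (SE 0.07, unadjusted p = 0.00782), and its adjusted p was 0.349. This was 1 of the 9 genes, against 1.23% of all probe sets passing in the higher direction and 0.321% in the lower direction, where none of the 9 passed. Nefl had an unadjusted p of 0.0271 and an adjusted p of 0.533 with the block and a log2 fold change of 0.19 (SE 0.08), under the threshold of 0.2. After adjustment over all probe sets, 0 of the 9 genes passed in the blocked limma fit, against 0.273% of all probe sets, and at an unadjusted p under 0.05 the counts were 2 of the 9 and 1306 of all probe sets. The error of that fit rests mostly on a spread shared over genes, with 1 residual and 16.4 prior degrees of freedom, and rests little on the arrays of each gene alone. For Nefm and Nefl the genotype differences of the experiments lay 0.36 and 0.43 apart. The shared spread is smaller than this, so their p-values may be too small.

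No gene of the 9 had both transgenic arrays on one side of both wildtype arrays. Over all probe sets, 5.67% had both transgenic arrays above and 12.7% had them below. The smallest p that an exact two-sided permutation test of 2 against 2 arrays can reach is 0.333.

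Between the experiments, most of the 9 neuronal genes passed the test. In limma with genotype and experiment as terms, 6 of the 9 genes were higher in experiment 2 than in experiment 1 at an adjusted p under 0.05 and 0 were lower, against 19.1% and 20.1% of all probe sets. This is the blocked fit, with 1 residual and 16.4 prior degrees of freedom, so its error rests mostly on a spread shared over genes. A gene's own residual in it is the genotype difference of experiment 2 minus that of experiment 1. This exceeded 0.2 for 7 of the 9 genes, against 5.75% of all probe sets. For these 7 the shared spread is smaller than their own, so their standard errors and p-values may be too small. Nefl was higher by 0.75 (SE 0.08) and Gap43 by 0.56 (SE 0.07) on the log2 scale, with adjusted p-values of 7e-07 and 8.2e-06 from limma. In transgenic limbs alone, the change between experiments was 0.97 for Nefl and 0.75 for Gap43, and in wildtype limbs it was 0.54 and 0.38. For these genes the arrays of experiment 2 stood above those of experiment 1 in both genotypes.

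Stmn2, Tubb3 and Elavl4 also passed, with differences of 0.33, 0.25 and 0.23 and adjusted p-values of 0.0137, 0.0150 and 0.0155 in limma. In these 3 genes the transgenic arrays differed between the experiments by 0.66, 0.46 and 0.41, while the wildtype arrays differed by −0.01, 0.04 and 0.05. Nefm, the remaining gene that passed (0.28, adjusted p = 0.00476 in limma), differed by 0.45 in transgenic and 0.10 in wildtype limbs. Prph, Elavl3 and Isl2 did not pass, and the change of Prph had opposite signs, 0.35 in transgenic and −0.14 in wildtype limbs. The median change of the 9 genes was 0.45 in transgenic limbs and 0.07 in wildtype limbs, while over all probe sets it was −0.01 and −0.00. For each gene, the gap between these changes equals the gap between its genotype differences in the experiments, so it is no further observation.

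**Figure D4:**
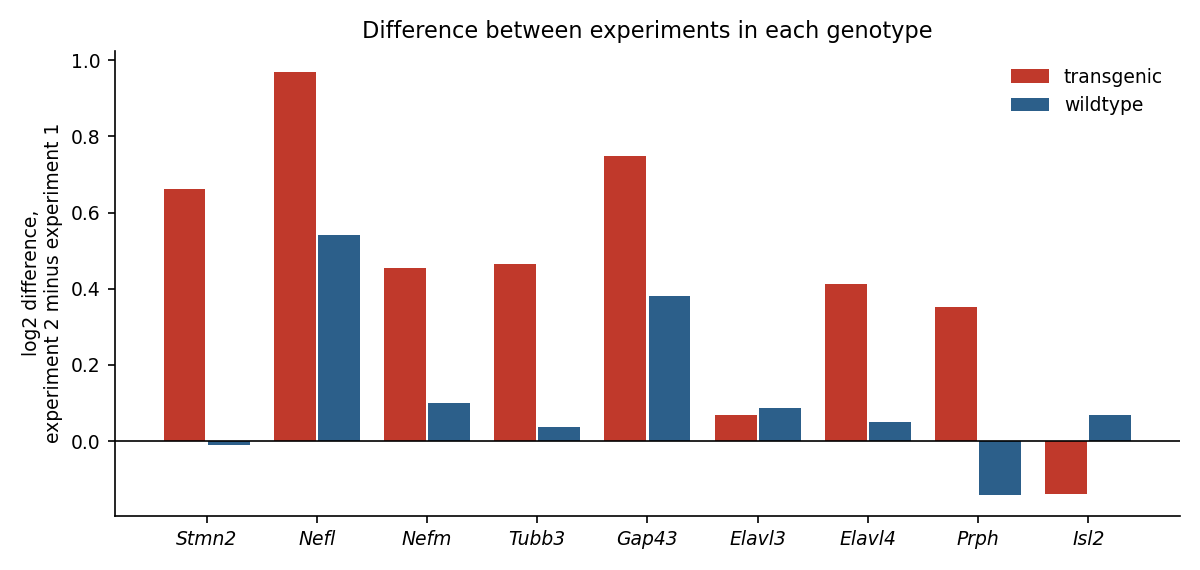
Change between experiments (log2, experiment 2 minus experiment 1) of each of the 9 neuronal genes in transgenic and in wildtype limbs, 1 array per experiment and genotype. The transgenic change lies above the wildtype one for 7 genes, and for Nefl and Gap43 both lie well above 0.

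A wider list of 42 measured neuronal genes, such as synaptic and cytoskeletal genes, was counted for the same order. Transgenic limbs were above wildtype in experiment 2 and below in experiment 1 for 22 of the 42, beside the 24.9% of all probe sets, and 0 passed the study's thresholds in either limma fit. The differences in experiments 2 and 1 had opposite signs for Ina, the internexin filament, at 0.44 and −0.17, and for Stmn3, a stathmin like Stmn2, at 0.40 and −0.19. Snap25, a protein of synaptic vesicle release, had 6.48 and 6.17 in transgenic limbs against 6.10 and 6.19 in wildtype limbs. Scg2, a secretory granule protein, ran the other way, with −0.36 in experiment 2 and 0.03 in experiment 1. These 4 were chosen after their values were seen. Over the 42 genes, the median difference was 0.04 in experiment 2 and −0.03 in experiment 1. In the limma test between the experiments, 15 of the 42 were higher in experiment 2 and 5 were lower. The shares of all probe sets were 19.1% and 20.1%.

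Among markers of neuron classes, 1 of 12 motor neuron genes had this order, as did 3 of 11 sensory neuron genes and 1 of 8 sympathetic neuron genes, beside the 24.9% of all probe sets. Isl1, a LIM homeodomain factor of motor and sensory neurons that is also made in limb tissue and that was a candidate of the study, did not have it. Isl1 had 9.22 in experiment 2 and 8.85 in experiment 1 in transgenic limbs, against 8.87 and 8.48 in wildtype limbs. It was above wildtype by 0.35 and 0.37, nearly the same amount in both experiments, and passed in the blocked limma fit with an adjusted p of 0.0083 but not in the fit without the block. The call is no independent evidence, since the study picked the gene on these samples. Isl2, with the same kind of protein, had 0.03 (SE 0.06) in that fit.

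Genes of other cell types were set beside these results, and their part in them was not tested. The summed linear signal of the 9 neuronal genes was 2454 in experiment 2 and 1682 in experiment 1 in transgenic limbs, against 2059 and 1808 in wildtype limbs. Of 11 Schwann cell genes, 3 were higher in experiment 2 in limma, beside 19.1% of all probe sets. The summed signal of the 11 was 2866 and 2329 in transgenic limbs against 2680 and 2142 in wildtype limbs, and without Pmp22 it was 1524 and 1389 in transgenic limbs against 1505 and 1336 in wildtype limbs. The 3 genes were Fabp7, Pmp22 and Pou3f1, higher by 0.97, 0.53 and 0.16. Fabp7 had 8.18 and 7.06 in transgenic limbs against 7.89 and 7.06 in wildtype limbs. Sox10 and Erbb3, early Schwann cell genes, did not pass between the experiments, with −0.06 and −0.15. Pmp22, a Schwann cell membrane protein made also in other tissues, alone of the 11 passed the study's thresholds in the blocked fit with 0.21. Its adjusted p in limma was 0.21, and 1.23% of all probe sets passed in the higher direction. Neural tube progenitor genes, 13 in number, summed to 1366 and 1375 in transgenic limbs and to 1398 and 1329 in wildtype limbs. Sox2 alone of the 13 passed the study's thresholds in the blocked fit, with 0.26 and an adjusted p of 0.10 in limma, beside the same 1.23%. Signal over background is not known, so whether transcripts of these lists are present cannot be read from the values.

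The transgenic array of experiment 2 was also the highest for 7 of 9 skeletal muscle genes, beside 28.1% of all probe sets. Their summed signal was 17331 in experiment 2 and 13738 in experiment 1 in transgenic limbs, against 16144 and 11021 in wildtype limbs, so the lowest array was the wildtype one of experiment 1. Of these genes, 4 passed the study's thresholds in the blocked fit (Myl4, Myh3, Tnnc2 and Tnnt1, from 0.21 to 0.33 on the log2 scale), beside 1.23% of all probe sets, and Myl4 and Tnnc2 had an adjusted p under 0.05. Among 8 cartilage genes, Matn1, Acan and Hapln1 passed the study's thresholds in the blocked fit, all higher, beside 1.23% of all probe sets. Of 13 limb mesenchyme genes Tbx5, a forelimb factor, passed in that fit with −0.24, beside 0.321% of all probe sets in the lower direction. Summed limb mesenchyme signal was 9974 and 11712 in transgenic limbs against 10311 and 12086 in wildtype limbs, lower in experiment 2 in both genotypes, and 9 of the 13 genes were lower there by limma, beside 20.1% of all probe sets.

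**Figure D5:**
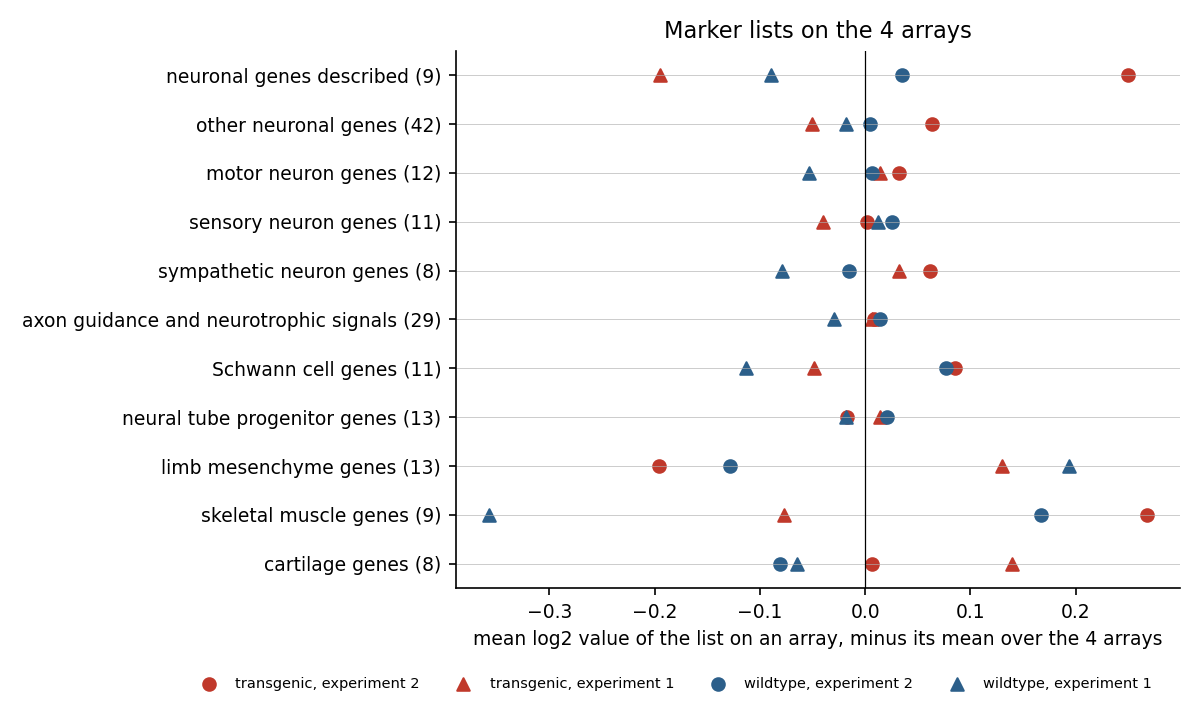
Mean log2 value of each marker list on an array, minus the mean over the 4 arrays (horizontal axis), for the 9 neuronal genes and 10 other lists, with the number of genes measured in brackets. The neuronal genes reach 0.25 in the transgenic array of experiment 2 and −0.19 in the transgenic array of experiment 1, and the neural tube genes lie at most 0.021 from 0.

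Axon guidance and neurotrophic genes, 29 in number, include ligands and their receptors. In the blocked fit Robo1, a Slit receptor, alone of the 29 passed the study's thresholds with 0.20, beside 1.23% of all probe sets in the higher direction. Its adjusted p in limma was 0.46, and it had −0.00 in experiment 2 and 0.41 in experiment 1. Gdnf, which supports motor neurons, had 7.22 and 7.51 in transgenic limbs against 7.29 and 7.57 in wildtype limbs. Between the experiments, 10 of the 29 genes were higher and 9 lower in experiment 2, beside 19.1% and 20.1% of all probe sets.

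The mean centred profile of the 9 genes was nearest, over the 4 arrays, to that of 1110032A03Rik, Zfp180, Dtwd1, Snapin and Zfp60, with root mean square distances of 0.01 to 0.03 on the log2 scale. This describes a likeness over 4 arrays and nothing of function.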

How the data were processed

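RNA of 2 transgenic and 2 wildtype limb pools was measured, 1 pool per array. The authors put perfect-match intensities on a log scale, applied quantile normalization across arrays and deposited log2 values for 16556 probe sets, 1 for each Entrez gene or control. The log base was read from the range of the values, and the build is not given in the sources used here. The study's methods describe mixed models on the log scale, with probe and genotype as fixed and sample as random terms and a custom probe grouping by Entrez gene; how 1 deposited value per array was taken from the probes is not given. Signal over background is not known. After removal of 64 controls, 16492 probe sets were tested with no filter. Platform annotation names 15270 of them, and 1222 are unnamed here.

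Genotypes were compared with limma 3.58.1 in R 4.3.3 (lmFit and eBayes, genotype as the only term, Benjamini-Hochberg over all probe sets), and a second fit added a block for the hybridization experiment. Pairs were taken from the title suffix, read as the experiment, and the submitters' description of littermates, and paired arrays' changes had a correlation of 0.857 across probe sets. Whether pools of an experiment share a litter is not given, so p-values concern these arrays and not litters. With genotype as the only term they rest on the spread between these arrays and on a spread shared over genes. In the blocked fit, used also between the experiments, they rest mostly on the shared spread. Alternatives were filters on dim probe sets, median centring, repeated quantile normalization, an intensity trend, analysis of variance without moderation and leaving out each array.

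The 9 genes and all lists were chosen with earlier results of these data known. Named were the 9 genes, list genes past a threshold in either fit (at most 4 a list), Isl1, the 5 nearest profiles, and Xist and Eif2s3y. Gdnf, Ina, Stmn3, Snap25, Scg2, Prrx1, Sox10, Erbb3, Fabp7, Pou3f1 and the semaphorins and receptors of the closing section were added after their values were seen.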

Additional observations from a re-analysis of the deposited data

How the results depend on the processing

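With the replicate block, 256 probe sets passed the study's thresholds and 45 the adjusted threshold, against 31 and 0 without it, and 1 of the 9 genes passed the study's thresholds, Nefm; it changed no other call of the 9. A filter at the 25th percentile of mean signal gave 15 probe sets and one at the 50th percentile 6, with 1 past the adjusted threshold, while an intensity trend gave 48 and 1 and analysis of variance without moderation 14. The filters kept 8 and 4 of the 9 genes. Prph fell under the 25th percentile, and Tubb3, Elavl3, Elavl4 and Isl2 fell under the 50th. Of the 31, 22 were higher and 9 lower, against 18 and 19 after median centring and 24 and 24 with the trend. Repeated quantile normalization turned Elavl3 to 0.0096. Besides this and leaving out arrays, the 9 genes kept their direction and their side of the adjusted threshold in 56 results, the block included, and the experiment difference did in 18.

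Leaving out 1 array at a time, with replicates numbered as the experiments, gave 12 probe sets past the study's thresholds without wildtype replicate 1, 20 without transgenic replicate 2 and 56 without wildtype replicate 2. Past the adjusted threshold there were 0 each time. Of the 9 genes, 0 to 2 passed the study's thresholds, and the count of 2, Nefm and Stmn2, came without transgenic replicate 1. The median of the 9 genes lay between −0.18 without transgenic replicate 2 and 0.29 without transgenic replicate 1. Single genes ranged from −0.26 to 0.40 for Stmn2, −0.30 to 0.67 for Nefl, −0.012 to 0.44 for Nefm, −0.18 to 0.29 for Tubb3, −0.41 to 0.34 for Gap43, −0.064 to 0.025 for Elavl3, −0.16 to 0.25 for Elavl4, −0.23 to 0.12 for Prph and −0.036 to 0.10 for Isl2, so that each changed sign. The share of all probe sets that changed sign was not counted, and the causes were not tested. With 2 arrays per genotype, the number of arrays limits the precision, and signal over background is not known.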

Other observations

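Between the experiments, semaphorins of class 3 and their receptors, which steer axons and vessels, differed in both directions in limma at an adjusted p under 0.05. Of the 5 such semaphorins on the guidance list, Sema3c was higher in experiment 2 by 0.76, Sema3a by 0.36 and Sema3d by 0.34, Sema3f had −0.59, and Sema3e did not pass (0.13). Of the receptors, Nrp1 was higher with 0.51, while Nrp2, Plxna3 and Plxna1 were lower with −0.44, −0.46 and −0.27. Sema3c had 9.13 in experiment 2 and 8.39 in experiment 1 in transgenic limbs, against 8.97 and 8.18 in wildtype limbs. Sema3f had 8.40 and 9.02 in transgenic limbs against 8.46 and 9.03 in wildtype limbs. Their genotype differences in the blocked fit were 0.18 for Sema3c and −0.03 for Sema3f, both with adjusted p-values over 0.05. These genes were chosen after their values were seen.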
